A study of Homo sapiens with 6 samples.

Results

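The genes described here encode the machinery of mismatch repair, base excision repair, nucleotide excision repair and DNA end joining, together with the direct reversal enzyme MGMT and 3 checkpoint genes. They are 35 genes, chosen by function, and 32 of them were read by at least 1 probe set that the platform annotation assigns to that gene alone, out of 19775 genes with such a probe set on the array. PMS2, NEIL1 and NHEJ1 were read only by probe sets annotated to several genes and were not analysed here. The 32 genes were covered by 69 probe sets, of which 59 lay above a filter on dim signals (a mean signal of 90.2) and 10 under it. All 32 genes kept their brightest probe set above that filter.

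Transcripts were measured in 76N cells, normal human mammary epithelial cells that the labels call a cell line, grown in DFCI-1 medium. In each group 3 cultures labelled as biological replicates were each hybridised to 1 Affymetrix array. The first group received a control siRNA and the second an siRNA against Ecd, the product of ECD, the human relative of a fly gene needed for ecdysone synthesis. Both groups went through siRNA transfection, and the sources used here give no siRNA sequence, dose or time to harvest. The question is how transcript levels differ once Ecd is targeted.

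Cells remove different DNA lesions by different routes. Mismatch repair corrects replication errors, and base excision repair takes out damaged bases through glycosylases, an endonuclease and a ligase. Nucleotide excision repair cuts out a short stretch around a bulky or ultraviolet-induced lesion, end joining seals double-strand breaks without a template, and the kinases CHEK1 and CHEK2 relay damage and replication stress to the cell cycle. In dividing cells, part of this machinery works at the replication fork and is transcribed as cells enter S phase, while other parts are present throughout the cell cycle.

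Signals are MAS5 intensities on a linear scale, with array medians of 128.7 to 147.6. ECD fell from 1032 ± 38.9 to 577.1 ± 30.4 (SD, n = 3 each), to 55.9% of the control signal, with a log2 change of -0.82 and an SE of 0.10 (limma adjusted p = 0.000177, two-sided exact permutation p = 0.1, the smallest that 3 against 3 arrays allow). The basal keratin KRT5 was at mean signals of 16435 in control and 16024 in Ecd siRNA arrays. Of 15 epithelial markers 11 were measured, all above the filter, with summed signals of 118625 to 129310 and 123875 to 135234. Among them 1 was lower, KRT18 at a log2 change of -0.52, and 2 were higher, CDH1 at 0.25 and CDH3 at 0.38. Fibroblast markers summed to 6552 to 7067 in control and 12229 to 14001 in Ecd siRNA arrays. Of 7 tested, 4 were higher (COL1A1, FAP, FBN1 and LOX), and COL3A1, LUM, PDGFRA, PDGFRB and POSTN lay under the filter. THY1, COL1A2 and DCN, at log2 changes of -0.32, -0.17 and 0.11, were not called. FAP and LOX, the brightest of the tested markers, rose from mean signals of 2610 to 5334 and of 1928 to 5043. Luminal markers summed to 4138 to 4295 and 5441 to 5904, with 2 of 6 tested (AGR2 and GATA3) higher. Endothelial markers summed to 1023 to 1110 and 968.4 to 1148. Of these, PECAM1, TEK and CLDN5 lay above the filter and VWF, CDH5, KDR and EMCN under it. Leukocyte markers summed to 547.5 to 711 and 451.9 to 526.9, with ITGAM, LYZ and MS4A1 above the filter and PTPRC, CD14 and CD3E under it. No endothelial or leukocyte marker was called in either direction. The 3' to 5' signal ratio of the GAPDH control probe sets was 0.974 to 0.980 in control arrays and 0.974 to 1.003 in the others. The part of the epithelial, fibroblast and luminal marker changes in the results below was not tested. In bulk RNA, fewer cells of a type and less RNA per cell cannot be told apart.

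A subset of the repair transcripts was lower after Ecd siRNA and none was called higher. Of the 32 genes tested, 10 fell: MSH6 and PMS1 of mismatch repair, NEIL3, MUTYH and PARP1 of base excision repair, ERCC1 of nucleotide excision repair, XRCC5 and XRCC6 of end joining, and the checkpoint genes CHEK1 and TOPBP1. Over all 14614 genes tested in the same limma fit, 11.0% were called lower and 10.1% higher, 21.2% in all (adjusted p under 0.05). At an unadjusted p under 0.05 in the same fit, 12 of the 32 repair genes were lower and 1, LIG4, was higher. Over all 14614 tested genes 2405 were lower and 2330 higher at that cutoff. The median log2 change of the 32 genes was -0.19, and that of all tested genes 0.01. Changes were below 0 in 25 of the 32, beside 7133 of all 14614 tested genes. In 14 of the 32 the 3 Ecd siRNA arrays all lay below the 3 control arrays and in 3 (APEX1, ERCC5 and LIG4) above, against 18.4% and 18.1% of all tested genes. A log2 change here is a difference of log2(signal + 16), which understates the change of dim transcripts.

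**Figure D1:**
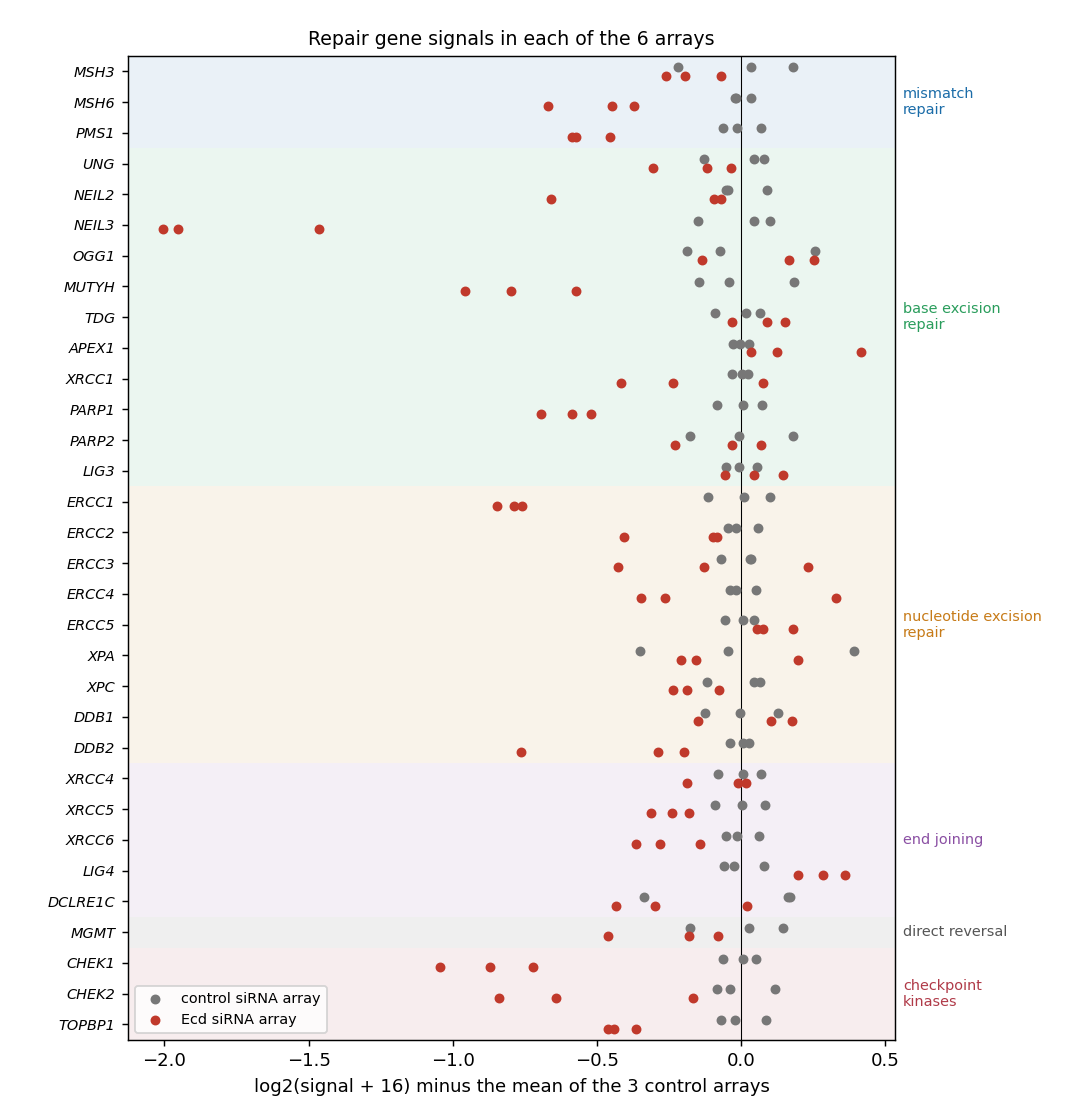
Signals of the 32 repair genes in each array, as log2(signal + 16) minus the mean of the 3 control arrays, grouped by pathway; grey points are control siRNA arrays and red points Ecd siRNA arrays. NEIL3 has the largest fall, and the 3 red points of LIG4 all lie to the right of its grey points.

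**Figure D2:**
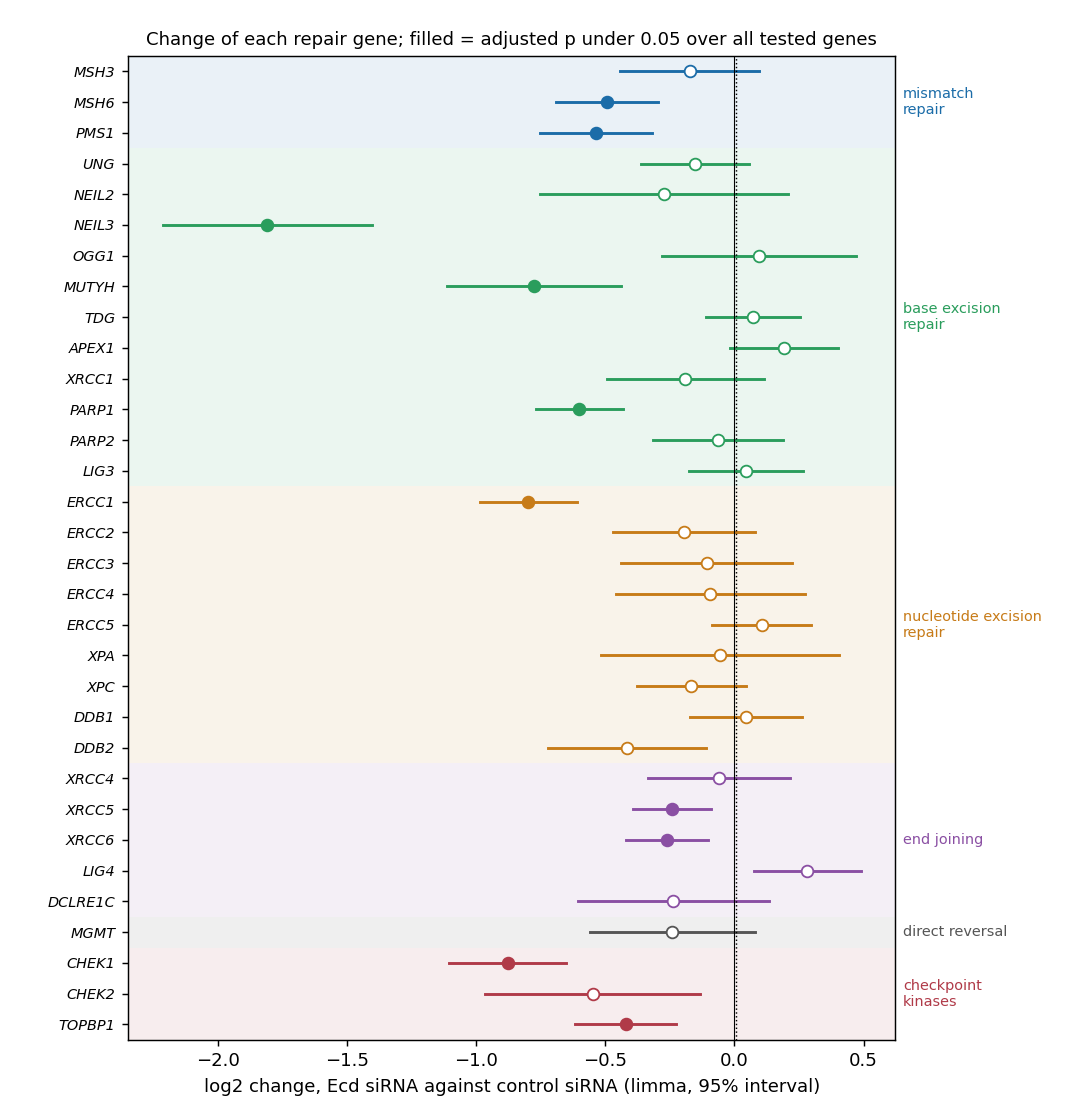
Log2 change of each repair gene from control siRNA to Ecd siRNA arrays (points) with its 95% interval from limma (bars); filled points passed an adjusted p of 0.05 over all tested genes and the dotted line is the median of all tested genes. The 10 filled points all lie left of 0 and the intervals of DDB2, CHEK2 and LIG4, all unfilled, do not reach 0.

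The sequences just upstream of the annotated starts are shown for 4 of the genes that fell and for UNG, which was not called, because promoters of genes that are transcribed with the cell cycle often hold the E2F-type and CHR-type motifs searched here. RefSeq promoter windows (GRCh38.p14, 250 bases before to 50 after each start) were found for 30 of the 32 genes. They were searched on both strands for the E2F-type letters TTCCCGC, for their variants spelled TTCGCGC or else TTGCCGC or finally TTGGCGC, for the letters CCAAT and for the CHR-type letters TTTGAA. An E2F-type match can overlap CCAAT, as in PMS1. Each line gives the 100 bases before the start, 5′ to 3′ on the gene's strand, with every match that lies wholly within them in capitals. These are NEIL3 (chr4:177309774-177309873, plus strand), PARP1 (chr1:226408094-226408193, minus), PMS1 (chr2:189784350-189784449, plus), XRCC6 (chr22:41621195-41621294, plus) and UNG (chr12:109097497-109097596, plus).
NEIL3: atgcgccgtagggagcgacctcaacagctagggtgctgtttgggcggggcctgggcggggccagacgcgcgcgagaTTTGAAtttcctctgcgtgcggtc
PARP1: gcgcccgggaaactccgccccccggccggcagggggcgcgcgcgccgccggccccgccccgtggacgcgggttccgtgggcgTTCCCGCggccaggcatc
PMS1: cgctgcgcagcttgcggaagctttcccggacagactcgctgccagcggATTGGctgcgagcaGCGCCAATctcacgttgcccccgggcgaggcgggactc
XRCC6: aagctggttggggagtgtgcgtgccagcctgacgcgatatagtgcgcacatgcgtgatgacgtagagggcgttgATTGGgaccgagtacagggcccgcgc
UNG: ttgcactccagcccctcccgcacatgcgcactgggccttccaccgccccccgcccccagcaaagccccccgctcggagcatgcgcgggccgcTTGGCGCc

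An E2F-type match was present in 10 of the 18 windows of the genes that fell and in 12 of the 28 windows of the genes not past the threshold, beside 13.0% of all 35116 windows in the table and 17.5% of those of tested genes. Counted by gene, 7 of the 9 fallen genes with a window held such a match, as did 11 of the 21 genes that were not called, beside 22.8% of all tested genes with a window. This count takes a match in any window, so it favours genes with more windows. The 9 fallen genes had 18 windows, the 21 uncalled genes 28, and the 11708 tested genes 16835. CCAAT was present in 10 of the 18 and 14 of the 28 windows, against 34.6% of all windows and 34.5% of those of tested genes. TTTGAA was present in 3 and 3, against 15.2% and 11.4%. NEIL3, with the largest fall, held CCAAT and TTTGAA but no E2F-type match, and CHEK1 held only CCAAT, in all 3 of its windows. Some windows of the same gene overlap, as in CHEK1, and a match of letters is a description, not a bound site.

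Among the mismatch repair genes, MSH6 and PMS1 fell and MSH3 did not pass the threshold. MSH6 encodes the partner that recognises base mismatches and small loops, MSH3 the alternative partner for larger loops, and PMS1 a MutL-type protein. MSH6 had signals of 2773.2, 2674.1 and 2669.4 in control and 2091, 1981.8 and 1696.5 in Ecd siRNA arrays. The groups did not overlap, and the log2 change was -0.49, SE 0.09 (limma adjusted p = 0.0028). PMS1 had signals of 920, 866.8 and 838 in control and 577.8, 633.5 and 583.6 in Ecd siRNA arrays, again without overlap. Its log2 change was -0.54, SE 0.10 (limma adjusted p = 0.00299), but this rests on the brightest of its probe sets. With all probe sets of a gene averaged, dim ones included, MSH6 was at -0.27 (limma adjusted p = 0.34) and PMS1 at 0.10, and neither passed. MSH3 was at 929.5, 700.5 and 839.2 in control and 713.6, 681.2 and 780 in Ecd siRNA arrays. These groups overlapped, with a log2 change of -0.17 and a 95% interval of -0.44 to 0.10 (limma adjusted p = 0.375).

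In base excision repair 3 of 11 tested genes fell, and they were the glycosylase genes NEIL3 and MUTYH and the strand break sensor PARP1. NEIL3, whose protein removes oxidised bases and unhooks interstrand crosslinks during replication, had signals of 539.9, 469.9 and 562.3 in control and 123, 179.1 and 118.1 in Ecd siRNA arrays. The groups lay far apart, and the Ecd siRNA mean was 26.7% of the control mean. This gave a log2 change of -1.81, SE 0.18 (limma adjusted p = 6.75e-05), which ranked 107th from the bottom of the 14614 tested genes. MUTYH, the glycosylase that removes adenine paired with oxidised guanine, was at 541.8, 461.3 and 427.4 in control and 266.3, 313.7 and 236.7 in Ecd siRNA arrays. Its groups did not overlap, and the log2 change was -0.78, SE 0.15 (limma adjusted p = 0.00447). PARP1, the poly(ADP-ribose) polymerase that binds single-strand breaks, was at 4195.4, 3939.9 and 4385.5 in control and 2775.2, 2570.6 and 2902.8 in Ecd siRNA arrays. This left 65.9% of the control mean, a log2 change of -0.60, SE 0.08 (limma adjusted p = 0.00032). NEIL3, MUTYH and PARP1 each had 1 probe set.

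The other 8 base excision repair genes were not called in either direction. The uracil glycosylase gene UNG was at 2078.8, 2342.2 and 2401.2 in control and 2215.9, 1834.4 and 2090.3 in Ecd siRNA arrays. The groups overlapped, and the log2 change of -0.15 had a 95% interval of -0.36 to 0.06. APEX1, the abasic site endonuclease gene, was at 4041.4, 4114.3 and 4200.6 in control and 5500.4, 4226.8 and 4490.8 in Ecd siRNA arrays. Its groups did not overlap, but Ecd siRNA replicate 1 stood above the other two and the change of 0.19 did not pass (limma adjusted p = 0.19). OGG1, which encodes the 8-oxoguanine glycosylase, was at 375.7, 272 and 295.5 in control and 352.1, 375.2 and 282.1 in Ecd siRNA arrays, a log2 change of 0.10. TDG, the thymine glycosylase gene, was at 2115.3 to 2359.9 and 2203 to 2506.9, a change of 0.07 with a 95% interval of -0.11 to 0.25. Both genes overlapped between groups, as did the scaffold gene XRCC1 with a change of -0.19 and Ecd siRNA signals of 473.3, 592.1 and 416.2 around control signals of 548 to 569.9. PARP2, the second break-activated polymerase gene, was at 1286.6 to 1652.3 in control and 1241.2 to 1527.9 in Ecd siRNA arrays (-0.06, 95% interval -0.32 to 0.19), and the ligase gene LIG3 at 705.8 to 761.1 and 704.1 to 811.7 (0.05). NEIL2, a glycosylase gene related to NEIL3, was at -0.27 (limma adjusted p = 0.439). Its 3 Ecd siRNA arrays, at 122.3, 188.7 and 192, lay below the lowest control signal of 194.7, with most of the difference in Ecd siRNA replicate 1.

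Nucleotide excision repair genes showed a single fall, that of ERCC1, among 9 tested, a share close to the 11.0% called lower over all tested genes. ERCC1 encodes the partner of the ERCC4 (XPF) nuclease that cuts on the 5′ side of the lesion. Its signals were 2151.9, 2292.2 and 1970 in control and 1180.9, 1253.6 and 1230.1 in Ecd siRNA arrays. The groups lay far apart, with 57.1% of the control mean remaining and a log2 change of -0.80, SE 0.08 (limma adjusted p = 9.86e-05). ERCC4 itself was at 710.1, 666.7 and 677.2 in control and 535.1, 567.2 and 864.8 in Ecd siRNA arrays. Here Ecd siRNA replicate 3 was above and the other two below every control array, and the change of -0.09 did not pass, with a 95% interval of -0.46 to 0.27. The transcribed span of ERCC1 overlaps that of POLR1G in the RefSeq gene table, and the assignment of its probe sets to ERCC1 rests on the platform annotation.

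DDB2, which encodes the ultraviolet lesion sensor and is a known p53 target, had signals of 1258.7, 1319 and 1301.2 in control and 1126.1, 1057.1 and 754.6 in Ecd siRNA arrays. The groups did not overlap, but the spread among the Ecd siRNA arrays was wide, and the log2 change of -0.42, SE 0.14, missed the threshold (limma adjusted p = 0.0563). Leaving out Ecd siRNA replicate 1 gave -0.53 and a call (limma adjusted p = 0.0262), whereas leaving out Ecd siRNA replicate 3, the lowest array, gave -0.24 and none (limma adjusted p = 0.121). DDB2 also passed with the replicate number as a block (limma adjusted p = 0.0378). The partner gene DDB1 was at 0.04, with signals of 3989.8 to 4756 in control and 3926.2 to 4920.8 in Ecd siRNA arrays, and XPC, the global lesion sensor, at -0.17 with signals of 968.2 to 1102.1 in control and 890.2 to 995 in Ecd siRNA arrays. ERCC2 and ERCC3 encode the helicases of TFIIH, which open the DNA around the lesion. ERCC2 was at 568.7, 528.7 and 538.9 in control and 408.3, 514.6 and 509.1 in Ecd siRNA arrays, without overlap but with a change of -0.19 that did not pass (limma adjusted p = 0.325). ERCC3 was at 883.3 to 950.8 in control and at 1092.1, 846.1 and 685.5 in Ecd siRNA arrays, which lay on either side of the controls (-0.11). The 3′ nuclease gene ERCC5 was slightly higher in all Ecd siRNA arrays, at 1152 to 1259.2 against 1066.5 to 1145, with a change of 0.11 that did not pass (limma adjusted p = 0.453). XPA, whose protein verifies the lesion, was dim and variable, at 221.7 to 381.3 in control and 245.8 to 331 in Ecd siRNA arrays (-0.06, 95% interval -0.52 to 0.41).

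In end joining, the Ku subunit genes XRCC6 (Ku70) and XRCC5 (Ku80) fell slightly, while the ligase gene LIG4 lay higher without passing the threshold. XRCC6 had signals of 9085.8, 9573 and 8840.4 in control and 8300.3, 7118.8 and 7542.9 in Ecd siRNA arrays, a log2 change of -0.26, SE 0.07 (limma adjusted p = 0.0247). XRCC5 was at 7916.2, 8944.4 and 8460.2 in control and 6794.7, 7149 and 7435.4 in Ecd siRNA arrays, a log2 change of -0.24, SE 0.07 (limma adjusted p = 0.0282). In each the groups did not overlap, yet 83.5% and 84.4% of the control mean remained. The XRCC6 call did not hold when control replicate 1, control replicate 2, Ecd siRNA replicate 2 or Ecd siRNA replicate 3 was omitted (limma adjusted p up to 0.0974). For XRCC5 the same held of control replicates 2 and 3 and of Ecd siRNA replicates 1 and 2 (up to 0.108). Neither gene passed after scaling to a common median (limma adjusted p of 0.0844 for XRCC6 and 0.119 for XRCC5), and with all probe sets of a gene averaged they were at 0.17 and -0.10.

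LIG4 was the only 1 of the 32 genes with an interval wholly above 0. Its signals were 845.4, 825.9 and 911.6 in control and 1051, 990.4 and 1110.7 in Ecd siRNA arrays. The groups did not overlap, and the mean was 122% of the control mean, with a log2 change of 0.28, a 95% interval of 0.08 to 0.49 and an adjusted p of 0.0555 in limma. It passed in 4 of the 18 alternative settings, with limma adjusted p of 0.0377 to 0.0463. A second LIG4 probe set had signals of 687.6, 616.9 and 694.4 in control and 883.7, 783.8 and 820.4 in Ecd siRNA arrays, also without overlap. XRCC4, whose protein binds and stabilises the ligase, was at -0.06 with signals of 382 to 424.8 and 352.9 to 409.1, and its groups overlapped. The end-processing nuclease gene DCLRE1C (Artemis) was at 755.6, 529 and 760.1 in control and 493.8, 683.7 and 543.7 in Ecd siRNA arrays, a change of -0.24 within a wide 95% interval of -0.61 to 0.13. MGMT, the alkyltransferase that removes methyl groups from guanine, was at 416.4, 524.8 and 483.2 in control and 339.2, 446.3 and 415.6 in Ecd siRNA arrays. These overlapped, and the log2 change of -0.24 did not pass (limma adjusted p = 0.29).

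The checkpoint genes CHEK1 and TOPBP1 fell and CHEK2 missed the threshold. CHEK1, the kinase gene of the replication checkpoint, had signals of 1484.6, 1415.1 and 1532.6 in control and 707.8, 890.2 and 800.9 in Ecd siRNA arrays. The mean dropped to 54.1% of control, a log2 change of -0.88, SE 0.10 (limma adjusted p = 0.000182). TOPBP1, which activates the kinase ATR at stalled forks, was at 1188.7, 1228.6 and 1323.4 in control and 964.9, 915.3 and 900.4 in Ecd siRNA arrays. Its groups did not overlap either, with a log2 change of -0.42 and an SE of 0.09 (limma adjusted p = 0.00656). CHEK2, the kinase gene activated by ATM at double-strand breaks, was at 327.9, 379.2 and 338.4 in control and 308.4, 217.2 and 187.3 in Ecd siRNA arrays. The groups did not overlap, but Ecd siRNA replicate 1 lay close to the controls, and the log2 change of -0.55, SE 0.19, did not pass (limma adjusted p = 0.0642). Leaving that array out gave -0.74 and a call (limma adjusted p = 0.0143). Leaving out Ecd siRNA replicate 3 gave -0.40 (limma adjusted p = 0.181), and none of the other 4 omissions gave a call (0.114 to 0.176).

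The changes of related or partner genes were compared in 6 pairs, which were not among the planned comparisons. All but LIG4 with XRCC4 set a called gene beside an uncalled one, so a difference was partly built into the choice. For each pair, the log2 ratio of the 2 genes was taken within each array and compared between groups by a two-sided exact permutation test, with Benjamini-Hochberg adjustment over the 6 pairs. The change of NEIL3 differed from that of NEIL2 by -1.54 (SE 0.22), ERCC1 differed from ERCC4 by -0.70 (SE 0.22) and PARP1 from PARP2 by -0.54 (SE 0.20). LIG4 differed from XRCC4 by 0.34 (SE 0.04) and MSH6 from MSH3 by -0.32 (SE 0.17). In these 5 pairs the within-array ratios of the groups did not overlap, and the exact permutation p was 0.1, the smallest possible, or 0.12 after adjustment. CHEK1 and CHEK2 differed by -0.33 (SE 0.29) with overlapping ratios (exact permutation p = 0.3, adjusted 0.3). No pair could reach 0.05 in this design, and each gene was read by its brightest probe set alone. The other PARP2 probe sets were at -0.23 and -0.26. The other tested probe sets of XRCC4 were at 0.05, -0.49 and -0.56, that of ERCC4 at 0.13 and that of MSH3 at -0.19.

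Where a gene had several probe sets, they did not always move together. Tested each on its own, 15 of the 59 repair probe sets above the filter were called lower and 0 higher, against 8.68% and 8.36% of all 27030 single-gene probe sets tested. All 3 ERCC1 probe sets above the filter fell, with log2 changes of -0.80, -1.06 and -0.68, and all 3 CHEK1 probe sets did so, at -0.88, -0.71 and -0.47. MSH6 fell in both of its bright probe sets (-0.49 and -0.73). Each probe set above the filter thus gave the same direction for these 3 genes. PMS1 did not: its brightest probe set was at -0.54, while the other 3 above the filter were at 0.22, 0.41 and 0.36, with limma adjusted p of 0.384, 0.39 and 0.282. In the probe sets at 0.22 and 0.36 the Ecd siRNA arrays all lay above the control arrays. XRCC5 was at -0.24 in its brightest probe set and at 0.01 in the next, which had signals of 5764.3, 6022.3 and 5685.5 in control and 6353.5, 6055.5 and 5229.9 in Ecd siRNA arrays. LIG3 ranged from 0.05 in its brightest probe set to -0.72 in a dimmer one (limma adjusted p = 0.0759), and none of its 5 probe sets above the filter was called. Of the PARP2 probe sets, the second had signals of 1463.3, 1460 and 1505.5 in control and 1198.3, 1284.5 and 1298.3 in Ecd siRNA arrays, lower without overlap but not called (-0.23, limma adjusted p = 0.0921). The other XRCC6 probe set lay under the filter, with a mean signal of 40.2.

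**Figure D3:**
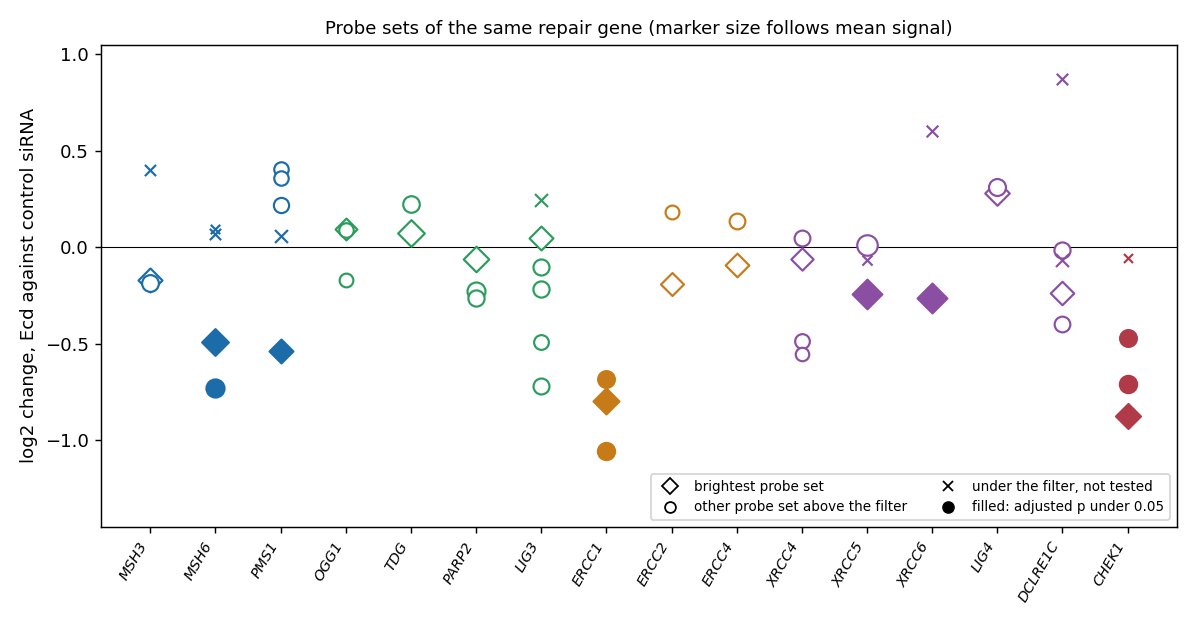
Log2 change of every probe set of the 16 repair genes that had more than 1, with diamonds for the brightest probe set, circles for others above the filter and crosses for those under it; filled markers passed an adjusted p of 0.05 and marker size follows mean signal. ERCC1 and CHEK1 have 3 filled markers each, whereas PMS1 has a filled marker at -0.54 and 3 open circles above 0.

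The other genes of the same pathways were taken from lists written from textbook knowledge, with earlier results of these data known. Among 79 tested there were 31 falls, 1 rise and 47 genes not past the threshold, and the median log2 change was -0.24. The counts of this and the following lists stand beside 11.0% called lower and 10.1% called higher over all tested genes. At an unadjusted p under 0.05, 2330 of all 14614 tested genes were higher. In the further mismatch repair list, made up largely of replication partners such as clamp loader, DNA polymerase delta and single-strand binding genes, 12 of 16 fell and 1 rose. RFC3, a clamp loader subunit gene, was at -1.49 (limma adjusted p = 2.48e-06) and RPA3, of the single-strand binding complex, at -1.05 (limma adjusted p = 1.28e-05). MLH3, a MutL gene, was the 1 that rose, at 0.42 (limma adjusted p = 0.0398), a call that did not hold when any control array or Ecd siRNA replicate 2 or 3 was omitted (up to 0.127). Among 18 further base excision and single-strand break repair genes 4 fell and 0 rose: the flap endonuclease gene FEN1 (-1.20), the polymerase epsilon subunit gene POLE2 (-1.31), HMGB1 (-0.44) and NUDT1 (-0.89), which clears oxidised nucleotides. Here 1 gene was higher at an unadjusted p under 0.05.

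Of 17 further nucleotide excision repair genes 3 fell, beside 11.0% of all tested genes, and 0 rose, with a median log2 change of 0.00 and 1 gene higher at an unadjusted p under 0.05. These were the kinase module genes CCNH (-0.38) and MNAT1 (-0.36) and the TFIIH gene GTF2H3 (-0.44). The call of MNAT1 (limma adjusted p = 0.0497) was lost in 14 of 18 alternative settings, among them the omission of any control array and of Ecd siRNA replicate 2 or 3 (limma adjusted p up to 0.164). That of GTF2H3 (limma adjusted p = 0.0303) did not hold without Ecd siRNA replicate 1 or 2 or control replicate 1 or 3 (up to 0.104). Of 13 further end joining genes 5 fell and 0 rose: the histone gene H2AX (-1.67), RNF168 (-0.96) and MDC1 (-0.80), which act in the chromatin response to breaks, the DNA-PK catalytic subunit gene PRKDC (-0.38) and the polymerase theta gene POLQ (-1.43). With probe sets averaged RNF168 (limma adjusted p = 0.0613), PRKDC (0.614) and POLQ (0.156) did not pass. POLQ lost its call without control replicate 1, control replicate 3 or Ecd siRNA replicate 3 (limma adjusted p up to 0.105). ALKBH3 (-0.09) and ALKBH2 (-0.06), the other direct reversal genes, were not called.

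In the further checkpoint list 7 of 13 genes fell and 0 rose, with 0 higher at an unadjusted p under 0.05. The fork protection genes TIPIN (-1.19) and TIMELESS (-1.23) had the smallest adjusted p. ATR, the kinase gene acting on CHEK1, was at -0.29 (limma adjusted p = 0.0373), a call not kept on leaving out any of the 3 control arrays or Ecd siRNA replicate 1 or 2 (up to 0.147). With the replicate number as a block its limma adjusted p was 0.0508, and the mean of its probe sets was at 0.09. ATM, acting on CHEK2, was at -0.01 with mean signals of 656.5 ± 74.8 and 655.3 ± 126 (SD, n = 3 each). For comparison, all 16 genes of an S phase and mitosis list, also written with earlier results of these data known, fell. They lay between -2.88 and -0.84 with the median at -2.17. CCNB1, the cyclin B1 gene, was at -2.69 and RRM2, a ribonucleotide reductase subunit gene, at -2.45. Of the 32 repair genes, NEIL3 and CHEK1 lay within that range, and the part of the S phase and mitosis gene change in the repair gene result was not tested.

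**Figure D4:**
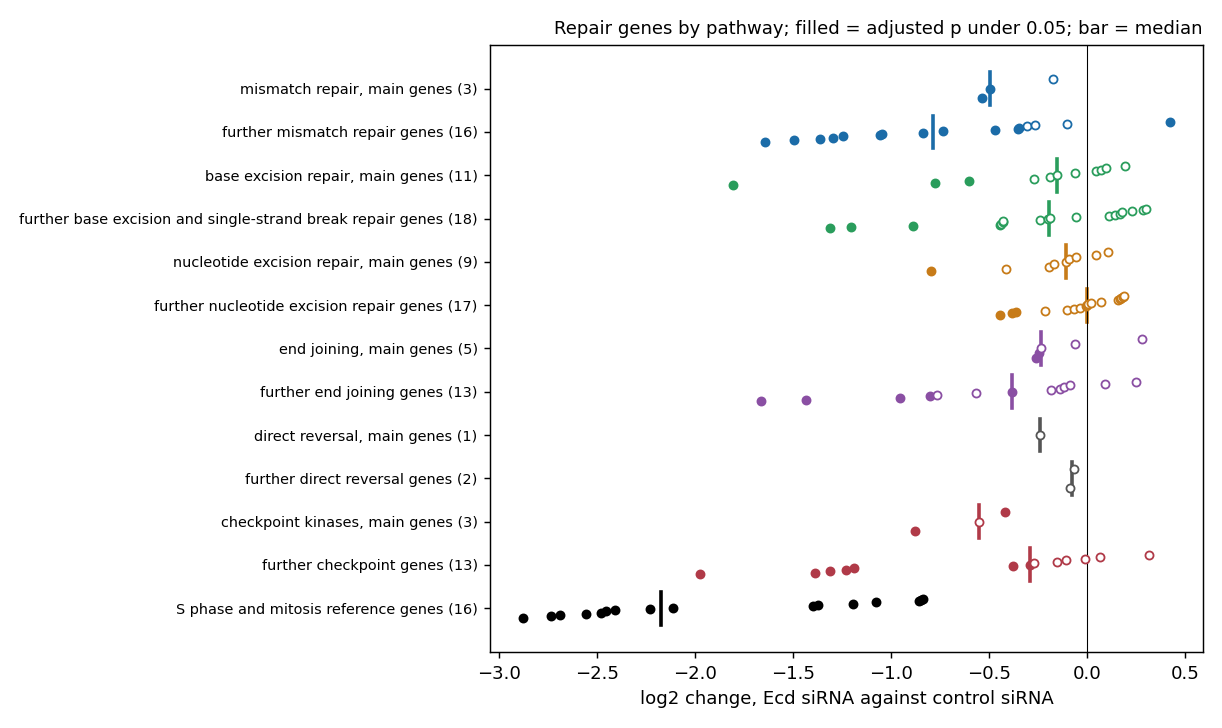
Log2 change of each tested gene, by pathway, for the repair genes described first (labelled main genes) and for the further genes of the same pathways, with the S phase and mitosis genes in the bottom row; filled points passed an adjusted p of 0.05, vertical bars are medians and numbers in brackets count the genes. The medians of both nucleotide excision repair rows, at -0.11 and 0.00, lie near 0, and that of the S phase and mitosis row is at -2.17.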

How the data were processed

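The deposited values are MAS5 signals, intensities on a linear scale, per the submitters' processing notes; those notes give neither version nor scaling target. The mean of each array without its lowest and highest 2% was 500.05 to 2 decimals, which hides any shift common to all transcripts. Of 54675 probe sets, 41091 had 1 gene symbol in the platform annotation, 1801 several, and 62 were controls. For each gene the single-symbol probe set with the highest mean signal was used, if its mean signal was above 90.2, which keeps 60% of probe sets. Ecd siRNA was compared with control siRNA on log2(signal + 16) in limma 3.58.1 (R 4.3.3; lmFit, eBayes with trend), with Benjamini-Hochberg adjustment over all 14614 genes and a threshold of 0.05, after a test on simulated data. The repair genes and all lists were chosen with earlier results of these data known. All 35 genes were to be named; from the other lists, the 2 genes with the smallest adjusted p past the threshold in each direction (or, with none, the 2 with the smallest p), ATM, ATR and PRKDC. HMGB1, NUDT1, MNAT1, MDC1 and POLQ complete counts and, like the marker genes and the 5 promoters printed, were chosen after their values were seen. The gene pairs were not among the planned comparisons. Promoters came from RefSeq (GRCh38.p14); stretches overlapping an annotated gene were left out. Alternatives changed the pseudocount (1 or 64), the normalization (quantile, or a common median), the filter (none, the upper 40%, or by mean log2 value), the probe sets (all of a gene averaged, or those without _s or _x in their names) and the fit (without trend, with array weights, with replicate number as a block, or without each array in turn). The number of arrays limits the precision, and p-values cover the variation among these 3 cultures a group.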

Additional observations from a re-analysis of the deposited data

How the results depend on the processing

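Of the 10 repair genes that fell, 6 (NEIL3, MUTYH, PARP1, ERCC1, CHEK1 and TOPBP1) were called in all 18 alternative settings, and 19 of the 22 uncalled genes were called in none. The count of falls was 6 with all probe sets of a gene averaged, where 8.38% of all tested genes were called lower. It was 8 to 11 on leaving out an array, where 0 rose each time and 7.94% to 10.4% of all tested genes were called lower. A rise, that of LIG4, was counted (1 gene) with quantile normalization, the upper 40% filter, the mean of probe sets and array weights. Genes past the threshold in the whole fit numbered 2201 to 2775 on leaving out an array, and ECD was at -0.85 to -0.78. With the mean of probe sets the sign turned for PMS1 (0.10), XRCC6 (0.17), MSH3 (0.013), LIG3 (-0.21), ERCC4 (0.021), DCLRE1C (0.032), ATR (0.091) and ATM (0.028), and MSH6 was at -0.27 (limma adjusted p = 0.34). With probe sets without _s or _x it turned for PMS1 (0.41), OGG1 (-0.17), LIG3 (-0.22) and ATM (0.17), and for ATM with quantile normalization (0.0045). Leaving out an array turned the sign of uncalled changes only: over the 6 omissions PARP2 ranged from -0.15 to 0.028, LIG3 from -0.0046 to 0.096, ERCC3 from -0.28 to 0.052, ERCC4 from -0.31 to 0.033, XPA from -0.23 to 0.14, DDB1 from -0.022 to 0.14, XRCC4 from -0.098 to 0.0045 and ATM from -0.16 to 0.091. The averages include probe sets under the filter, among them those of XRCC6 at 0.60, DCLRE1C at 0.87 and MSH3 at 0.40, with mean signals of 40.2, 35.3 and 29.7. PMS1, LIG3 and ERCC4 had probe sets of both signs above the filter. The causes of these sign changes were not tested.

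Deviations from the group means correlated across genes at -0.003, 0.08 and 0.16 for samples with the same replicate number. For samples with different numbers the correlations were -0.14 to 0.05, so a weak pairing cannot be told from these values. The main fit did not take the numbers as pairs, and a fit with them as a block was run beside it. With the replicate block 11 repair genes fell (1691 of all tested genes were lower and 1585 higher). Of the genes named, DDB2 gained a call and ATR and MNAT1 lost theirs. Choosing probe sets and filter by the mean log2 value, an alternative added after seeing the data, left 10 falls. Dim probe sets limit NEIL2, OGG1, XPA and CHEK2, whose intervals are wide. NEIL3 was also dim in the Ecd siRNA arrays, and its 95% interval was -2.21 to -1.40.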
